A study of Mus musculus with 12 samples.

Results

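The 10 genes described here encode the catalytic core of polycomb repressive complex 1 (PRC1) and its defining subunits: the ubiquitin ligases Ring1 and Rnf2 (RING1B), the PCGF proteins Pcgf1, Pcgf2, Pcgf3, Bmi1, Pcgf5 and Pcgf6, and the related cofactors Rybp and Yaf2. They were chosen by name, and each was read from 1 probe set, a group of array probes for 1 gene, out of 22180 genes measured in mouse pancreatic cells. Pcgf3 had 2 probe sets, of which the brighter over all 12 arrays was used, and the other 9 genes had 1 each. All 10 were matched by gene identifier in RefSeq (GRCm38.p6), which places Rnf2 on chromosome 1, Bmi1 on 2, Pcgf3 on 5, Pcgf1 and Rybp on 6, Pcgf2 on 11, Yaf2 on 15, Ring1 on 17, and Pcgf5 and Pcgf6 on 19.

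PRC1 places a single ubiquitin on histone H2A and keeps developmental genes silent. Every PRC1 complex holds Ring1 or Rnf2 together with 1 PCGF protein, and the genes are grouped here by that PCGF protein. Pcgf2 and Bmi1 are the PCGF proteins of canonical PRC1, which carries CBX and PHC subunits and compacts chromatin marked by PRC2. Pcgf1, Pcgf3, Pcgf5 and Pcgf6 build variant complexes, which carry Rybp or Yaf2 in place of a CBX protein and lay down most H2A ubiquitin in mouse embryonic stem cells. In the mouse pancreas, Bmi1 has been studied for its part in acinar regeneration and in tumor formation.

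The 4 groups held 3 arrays each. Tumor cells were low-passage pancreatic tumor cells grown in standard medium. ADM cultures, for acinar-to-ductal metaplasia, stood for acinar cells that take on a duct-like form, and spent 7 days embedded in collagen under TGF-alpha, an EGF receptor ligand given at 50 ng/ml. Embryonic and adult acinar cells, which make the digestive enzymes of the pancreas, were freshly isolated by enzymatic digestion and used for RNA directly. Between the cultured tumor and ADM cells and these freshly isolated cells, culture and cell state cannot be told apart. All samples, tumor cells included, carry the strain label C57Bl6/J wildtype. The labels give no driver mutation for the tumor cells and no embryonic day, and do not say whether the arrays of a group came from separate animals, cultures or tumors. The descriptions of the 3 tumor arrays share 1 identifying number, so p-values measure the spread between arrays, which may be technical. In the embryonic isolates markers of other cell types were high, and in such bulk RNA fewer cells of a type and less RNA per cell cannot be told apart.

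The sources used here hold promoter sequences of RefSeq (GRCm38.p6) for 7 of the 10 genes. The windows of 4 genes, the 250 bases before the annotated start read 5′ to 3′ on the gene's strand, are shown because these genes form 2 paralog pairs, Rnf2 with Ring1 and Pcgf2 with Bmi1, whose members are set against each other here. Capitals mark matches, on either strand, to the E-box CACGTG or to TGACGTC, the core of a cyclic AMP response element, and no match to either overlapped another.
Rnf2, chr1:151500992-151501241, minus strand: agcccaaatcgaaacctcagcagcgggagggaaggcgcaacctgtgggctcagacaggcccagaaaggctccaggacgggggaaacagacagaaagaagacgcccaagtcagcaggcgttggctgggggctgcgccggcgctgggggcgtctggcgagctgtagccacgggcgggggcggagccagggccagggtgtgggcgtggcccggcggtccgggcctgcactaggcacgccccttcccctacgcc
Ring1, chr17:34024681-34024930, minus strand: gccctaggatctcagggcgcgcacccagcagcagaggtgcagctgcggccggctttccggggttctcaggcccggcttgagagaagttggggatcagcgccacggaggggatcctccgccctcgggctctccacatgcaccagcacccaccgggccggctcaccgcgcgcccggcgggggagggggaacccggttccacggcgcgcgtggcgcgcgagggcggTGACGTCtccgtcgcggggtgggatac
Pcgf2, chr11:97699649-97699898, minus strand: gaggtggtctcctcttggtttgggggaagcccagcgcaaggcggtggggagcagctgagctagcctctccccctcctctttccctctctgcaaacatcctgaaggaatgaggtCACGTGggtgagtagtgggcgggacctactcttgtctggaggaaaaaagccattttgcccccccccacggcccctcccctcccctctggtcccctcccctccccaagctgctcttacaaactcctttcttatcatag
Bmi1, chr2:18676768-18677017, plus strand: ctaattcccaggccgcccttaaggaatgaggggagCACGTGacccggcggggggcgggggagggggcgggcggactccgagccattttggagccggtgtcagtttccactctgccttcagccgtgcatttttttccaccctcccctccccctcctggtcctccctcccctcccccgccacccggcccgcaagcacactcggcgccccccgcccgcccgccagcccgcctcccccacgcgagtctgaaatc

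The E-box lay at -137 to -132 before the start of Pcgf2 and at -215 to -210 before that of Bmi1, and 6.02% of all 32851 windows of this length held one. TGACGTC lay at -27 to -21 before Ring1, against a share of 2.78% of all windows. TTTNNCGC, the form of the E2F site searched, had no match in the 9 windows of the 7 genes, against a share of 4.28%. These windows had a GC content of 45.6% to 78.0%, where the median of all windows was 52.4%, and the window of Rnf2 held 20 CpG dinucleotides, that of Ring1 30, that of Bmi1 21 and that of Pcgf2 5. A match describes the letters only.

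The deposited values are log2 signal, and a probe set's level was not set against that of another. A gene was called at an adjusted p under 0.05 (limma, Benjamini-Hochberg over 22180 genes) and a log2 fold change of 1 or more in either direction. A background level of dim signal, set where 95% of the group means of 1394 odorant and pheromone receptor genes lay lower, was 3.62. Scaling bore on every comparison with adult cells. The median change of all genes against adult cells was -0.09 for tumor, -0.11 for ADM and -0.09 for embryonic cells, while among 8132 genes with a mean over 5 it was 0.50, 0.45 and 0.25. Housekeeping centring moved the medians of all genes to -0.37, -0.26 and 0.09, and cyclic loess moved that of ADM to -0.0015. The acinar markers marked the groups as labelled: their summed linear signal was 131 to 166 in tumor cells, 16547 to 22211 in ADM, 36734 to 42588 in embryonic and 50859 to 52303 in adult cells. In tumor cells Cpb1, Cel, Prss2, Amy2b and Ptf1a were at or under background.

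Against adult acinar cells, 4 of the 10 genes rose in tumor cells, 5 in ADM cultures and 2 in embryonic cells, and none was called lower. Of all genes measured, 20.0% were called in tumor cells, 16.7% in ADM and 12.6% in embryonic cells, and 3108, 2766 and 2217 of the 22180 genes were called higher. Among the 14897 genes above background in at least 1 group, the same shares were 29.7%, 24.8% and 18.7%, and all 10 members were among these. The variant subunits Pcgf5, Pcgf6 and Yaf2 rose in tumor cells and ADM, which were both cultured. Pcgf3 rose in ADM, Rnf2 rose in ADM and embryonic cells, and Pcgf2 rose in tumor and embryonic cells. Ring1, Pcgf1, Bmi1 and Rybp were not called in any of the 3 comparisons. On adjusted p alone, without a fold minimum, 7 members passed in tumor cells, 6 in ADM and 2 in embryonic cells, beside 37.2%, 35.9% and 29.4% of all genes. Among the 8132 genes with a mean over 5, which include every member but Bmi1, these shares were 67.0%, 60.4% and 45.7%. Of those 8132 genes, 43.3%, 36.3% and 24.1% were called with the fold minimum. For 7, 6 and 4 members no array of the group overlapped the adult range, beside 43.7%, 49.8% and 42.9% of all genes. The 3 comparisons share the adult arrays. The median change of the 10 genes was 0.92 in tumor cells, 0.90 in ADM and 0.24 in embryonic cells, beside the medians of all genes given above. The 11 measured housekeeping genes had medians of 0.92, 0.78 and 0.40 in the same groups, with 4, 3 and 0 called higher.

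**Figure D1:**
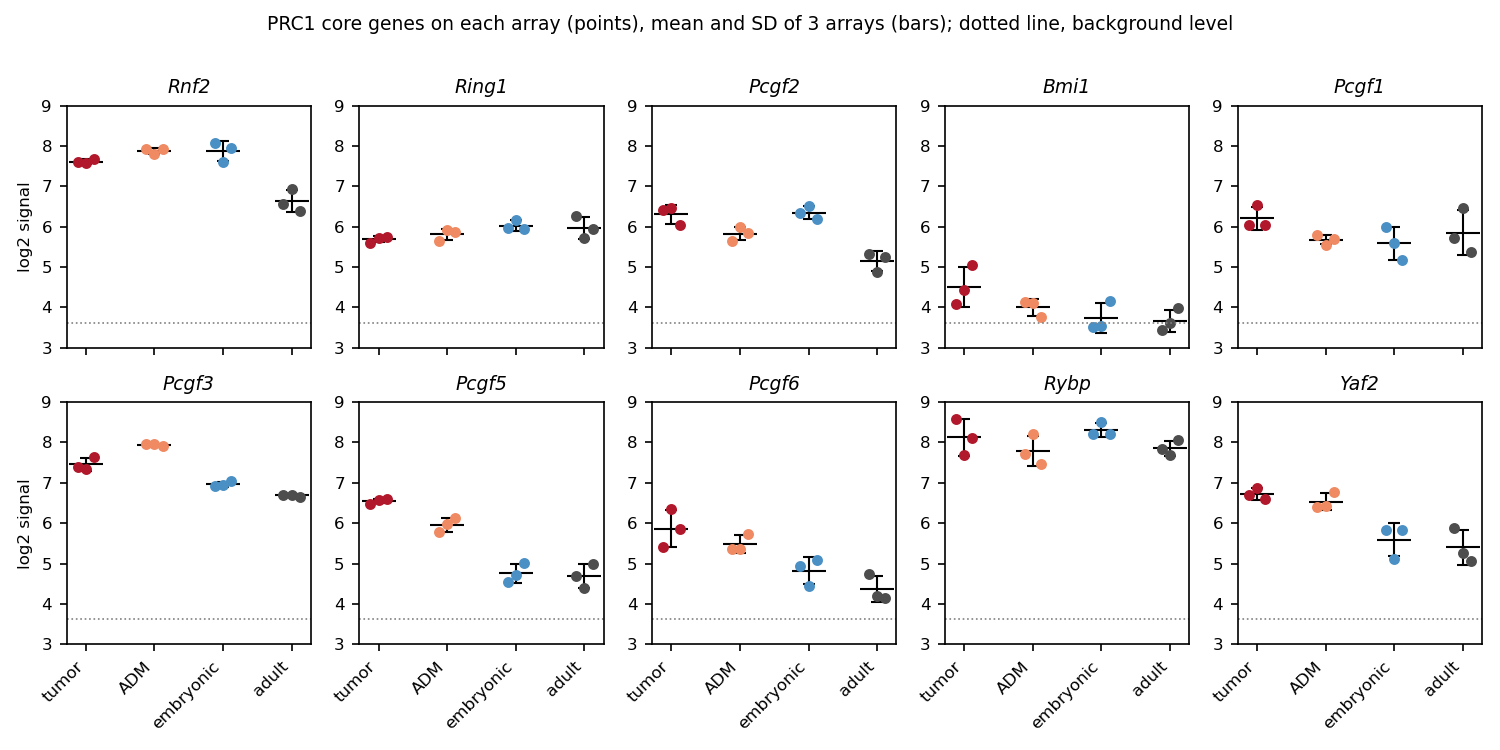
Log2 signal (vertical axis) of the 10 PRC1 genes on each of the 12 arrays, grouped as tumor, ADM, embryonic and adult cells. Points are arrays, bars the mean and SD of 3 arrays, and the dotted line the background level of 3.62. Rnf2, Pcgf2 and, on the probe set used, Pcgf3 were lower on adult arrays than on those of every other group. Bmi1 lay near the background level.

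The ligases Rnf2 and Ring1, which transfer ubiquitin to H2A, differed in their course. Rnf2 had log2 signals of 7.59, 7.57 and 7.67 in tumor cells, 7.93, 7.79 and 7.91 in ADM, 8.07, 7.61 and 7.94 in embryonic cells, and 6.57, 6.92 and 6.38 in adult cells. All 9 arrays of the first 3 groups lay above all 3 adult arrays. Rnf2 rose by 1.25 ± 0.17 (SE, n = 3 per group; limma adjusted p = 6.54e-05) in ADM and by 1.25 ± 0.17 (limma adjusted p = 0.000108) in embryonic cells. In tumor cells its change was 0.99 ± 0.17 (limma adjusted p = 0.000363), just under the fold minimum, and it passed that minimum without tumor replicate 2 (1.01), without adult replicate 2 (1.14) and with array weights (1.02). Under the other scalings Rnf2 stood lower in tumor cells, at 0.48 with quantile normalization (limma adjusted p = 0.0548), 0.54 with cyclic loess and 0.71 with housekeeping centring. Between the other 3 groups no difference in Rnf2 passed the test: the tumor minus ADM difference was -0.27 (95% interval -0.63 to 0.10), with all tumor arrays below all ADM arrays, and the ADM minus embryonic difference was 0.0033 (-0.36 to 0.37). With housekeeping centring the tumor minus embryonic difference, -0.26 in the deposited values, was -0.72 (limma adjusted p = 0.0172). The order of its means was adult lowest, then tumor at 7.61, with embryonic and ADM cells level at 7.87 and 7.88.

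Ring1 had signals of 5.60, 5.72 and 5.74 in tumor cells, 5.65, 5.92 and 5.86 in ADM, 5.97, 6.17 and 5.93 in embryonic cells, and 6.26, 5.71 and 5.93 in adult cells. The adult arrays overlapped each of the other groups. Its change was -0.28 (95% interval -0.63 to 0.07) in tumor cells, -0.16 (-0.51 to 0.19) in ADM and 0.06 (-0.29 to 0.41) in embryonic cells. Scaling moved Ring1, short of the fold minimum. With quantile normalization it stood at -0.74 in tumor cells (limma adjusted p = 0.00158), at -0.66 in ADM (limma adjusted p = 0.00443) and at -0.40 in embryonic cells (limma adjusted p = 0.0679). With housekeeping centring it stood at -0.56 in tumor cells (limma adjusted p = 0.02), at -0.31 in ADM and at 0.23 in embryonic cells.

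**Figure D2:**
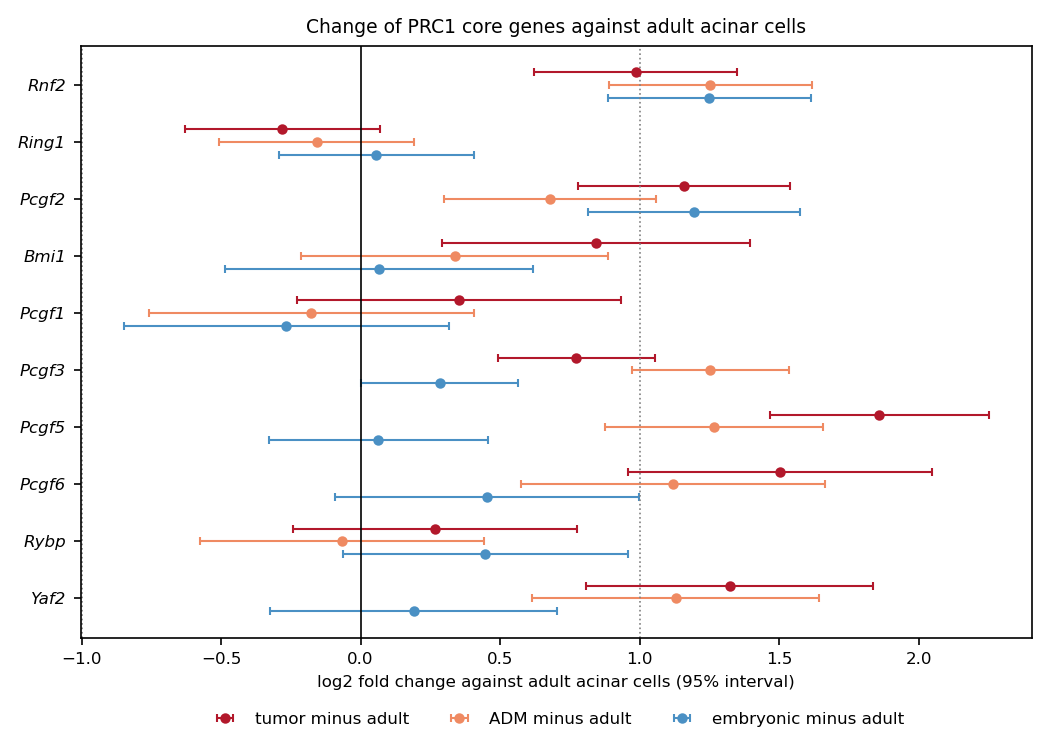
Log2 fold change against adult acinar cells (horizontal axis) of each PRC1 gene in tumor, ADM and embryonic cells, with the 95% interval from limma. Dotted lines mark the fold minimum at 1 and -1. Pcgf5 stood at 1.86 in tumor and 1.27 in ADM but 0.06 in embryonic cells, while Rnf2 stood near or above 1 in all 3.

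A difference between the paralogs within an array is free of any shift that both share, and only its change between groups is read here. Rnf2 minus Ring1 averaged 1.92 ± 0.07 in tumor cells, 2.07 ± 0.21 in ADM, 1.85 ± 0.36 in embryonic cells and 0.66 ± 0.48 in adult cells (SD, n = 3 each). The 3 adult arrays, at 0.31, 1.21 and 0.45, all lay below every other array, whose lowest value was 1.44. Over the 4 groups the pair differed by an exact permutation test of the F statistic (p = 0.0118, adjusted p = 0.0235 over 4 pairs, with a smallest possible p of 6.5e-05). The adjusted p passed 0.05 when ADM replicate 1 (0.0713), ADM replicate 3 (0.056) or tumor replicate 3 (0.0505) was left out of this exact test. Relative to Ring1, Rnf2 was higher than in adult cells by 1.27 in tumor, 1.41 in ADM and 1.19 in embryonic cells.

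Genes whose course over the 12 arrays was most like that of Rnf2 were found by the root mean square difference after each gene's own mean was subtracted. Of 19371 candidates, the nearest were Rlf at 0.15, B3glct at 0.15, Adnp at 0.15, Sdhaf4 at 0.17 and Ift81 at 0.17 on the log2 scale. Each was lowest in adult cells, which follows from their choice by likeness to Rnf2 on these arrays. Rlf, a zinc finger gene, averaged 5.80 in tumor, 6.05 in ADM, 5.82 in embryonic and 4.93 in adult cells. Adnp, a homeodomain and zinc finger gene, averaged 6.35, 6.40, 6.48 and 5.23 in the same groups. Among the other PRC1 core genes, Pcgf2 came nearest to Rnf2, at 0.41. Its rank was 1134 among all other genes measured, a wider set than the candidates above.

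The canonical subunits Pcgf2 and Bmi1 are close paralogs, and a canonical complex holds either. Pcgf2 had signals of 6.42, 6.46 and 6.04 in tumor cells, 5.65, 5.99 and 5.84 in ADM, 6.34, 6.50 and 6.19 in embryonic cells, and 5.32, 4.87 and 5.25 in adult cells. The adult arrays lay below all others, and the ADM arrays below those of tumor and embryonic cells. Pcgf2 rose by 1.16 ± 0.18 (SE; limma adjusted p = 0.000136) in tumor cells and by 1.20 ± 0.18 (limma adjusted p = 0.000218) in embryonic cells. In ADM it stood at 0.68 ± 0.18 (limma adjusted p = 0.00859), under the fold minimum, and did not pass with quantile normalization (0.25, limma adjusted p = 0.352) or cyclic loess (0.25, limma adjusted p = 0.311). The tumor minus ADM difference of 0.48 (limma adjusted p = 0.0905) and the ADM minus embryonic difference of -0.52 (limma adjusted p = 0.0616) did not pass. The second passed on adjusted p under 5 of 15 alternatives, all 3 other scalings among them, with a difference of -0.84 under housekeeping centring (limma adjusted p = 0.00626).

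Bmi1 had signals of 4.07, 4.42 and 5.04 in tumor cells, 4.14, 4.11 and 3.76 in ADM, 3.51, 3.53 and 4.16 in embryonic cells, and 3.43, 3.60 and 3.97 in adult cells. Of the 3 arrays in each group, 3 lay above background in tumor and in ADM and 1 in embryonic and in adult cells, so its level in the freshly isolated cells was near the limit of detection. In tumor cells it stood at 0.84 ± 0.26 (limma adjusted p = 0.0189), under the fold minimum. It stood at 1.06 without tumor replicate 1 and at 0.58 without tumor replicate 3 (limma adjusted p = 0.0918). Its adjusted p was also lost without adult replicate 1 (limma adjusted p = 0.068), without adult replicate 2 (limma adjusted p = 0.0518) and with housekeeping centring (0.57, limma adjusted p = 0.0745). In ADM it stood at 0.34 (95% interval -0.21 to 0.89) and in embryonic cells at 0.07 (-0.48 to 0.62). The tumor minus embryonic difference was 0.78 ± 0.26 (limma adjusted p = 0.0381), with overlapping arrays, and lost its adjusted p under 6 of 15 alternatives, with 0.32 under housekeeping centring (limma adjusted p = 0.307) and 0.51 without tumor replicate 3 (limma adjusted p = 0.176). Bmi1 minus Pcgf2 averaged -1.80 ± 0.71 in tumor cells, -1.82 ± 0.29 in ADM, -2.61 ± 0.51 in embryonic cells and -1.48 ± 0.36 in adult cells, and did not pass over the 4 groups (exact permutation p = 0.116).

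Among the variant PCGF genes, Pcgf5, the paralog of Pcgf3, had the largest change of the 10 members. It had signals of 6.48, 6.58 and 6.59 in tumor cells, 5.77, 5.97 and 6.13 in ADM, 4.53, 4.72 and 5.01 in embryonic cells, and 4.69, 4.39 and 4.99 in adult cells. Tumor arrays lay above ADM arrays, these above both freshly isolated groups, and embryonic and adult arrays overlapped. Pcgf5 rose by 1.86 ± 0.18 (3.63-fold; limma adjusted p = 2.57e-06) in tumor cells and by 1.27 ± 0.18 (limma adjusted p = 0.000113) in ADM, and stood at 0.06 (95% interval -0.33 to 0.46) in embryonic cells, where it lay at -0.22 with quantile normalization. It also rose by 1.80 ± 0.18 (limma adjusted p = 5.88e-06) in tumor cells against embryonic cells and by 1.20 ± 0.18 (limma adjusted p = 0.000353) in ADM against embryonic cells, where it stood at 0.88 with housekeeping centring. The tumor minus ADM difference of 0.59 ± 0.18 (limma adjusted p = 0.0417) was under the fold minimum and did not pass on adjusted p under 10 of 15 alternatives, each array left out in turn among them. The calls of Pcgf5 in tumor cells, against adult and against embryonic cells, held under all 15 alternatives, with changes from 1.39 to 2.01 and from 1.34 to 1.93.

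Pcgf3 had signals of 7.39, 7.35 and 7.64 in tumor cells, 7.95, 7.95 and 7.92 in ADM, 6.92, 6.95 and 7.04 in embryonic cells, and 6.71, 6.70 and 6.65 in adult cells. On this probe set the 4 groups did not overlap, in the order ADM, tumor, embryonic, adult. Pcgf3 rose by 1.25 ± 0.13 (limma adjusted p = 7.22e-06) in ADM, and stood at 0.77 ± 0.13 (limma adjusted p = 0.000335) in tumor and at 0.28 ± 0.13 (limma adjusted p = 0.119) in embryonic cells, where it lay at -0.08 with quantile normalization. In tumor cells Pcgf3 did not pass with quantile normalization (0.26, limma adjusted p = 0.16) or cyclic loess (0.31, limma adjusted p = 0.0973). The ADM minus embryonic difference was 0.97 ± 0.13 (limma adjusted p = 0.000137), just under the fold minimum. It was 0.64 with housekeeping centring (limma adjusted p = 0.0132). The tumor minus ADM difference was -0.48 ± 0.13 (limma adjusted p = 0.0234), opposite in sign to that of Pcgf5, and its adjusted p was lost under 7 of 15 alternatives, among them without tumor replicate 1, tumor replicate 2 or any 1 of the ADM arrays. The second Pcgf3 probe set stood at 0.84, 1.17 and 0.29 in tumor, ADM and embryonic cells against adult cells. On it the embryonic arrays, from 5.30 to 5.74, overlapped the adult arrays, from 4.80 to 5.54. Its tumor minus ADM difference of -0.33 did not pass (limma adjusted p = 0.335). Its ADM minus embryonic difference of 0.88 passed on adjusted p (limma adjusted p = 0.00537).

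Within arrays, Pcgf5 minus Pcgf3 averaged -0.91 ± 0.14 in tumor cells, -1.98 ± 0.20 in ADM, -2.22 ± 0.18 in embryonic cells and -2.00 ± 0.33 in adult cells (SD, n = 3 each). The tumor arrays, at -0.91, -0.77 and -1.05, all lay above the other 9. Over the 4 groups the pair differed (exact permutation p = 0.00812, adjusted p = 0.0235), with adjusted p from 0.0153 to 0.0423 as each array was left out of this exact test.

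**Figure D3:**
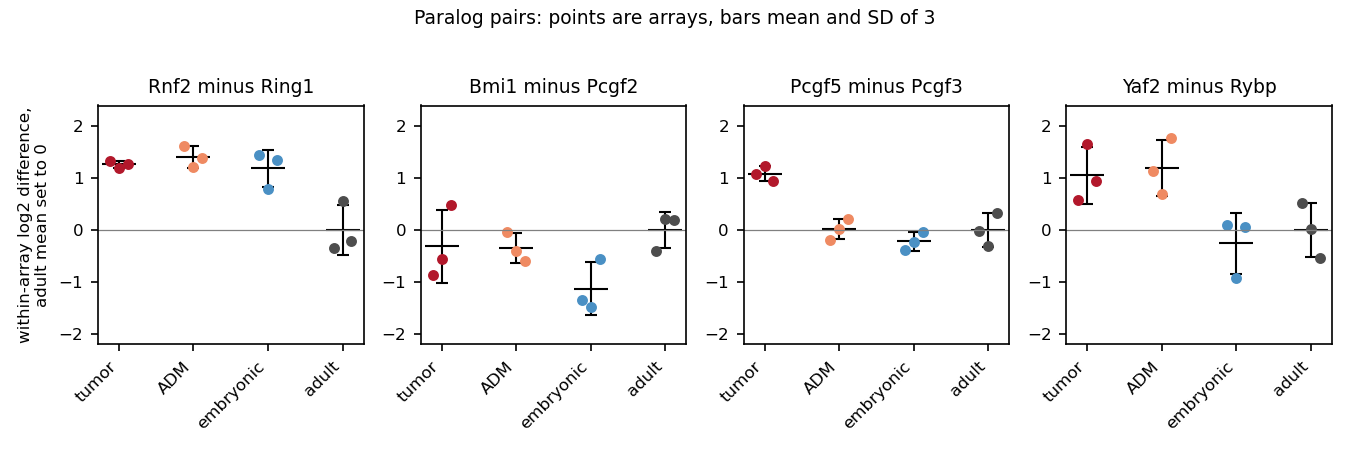
Within-array log2 difference between paralogs (vertical axis, the adult mean set to 0) in tumor, ADM, embryonic and adult cells. Points are arrays and bars the mean and SD of 3. Adult arrays lay below the rest for Rnf2 minus Ring1, tumor arrays above the rest for Pcgf5 minus Pcgf3, and tumor and ADM arrays above embryonic and adult arrays for Yaf2 minus Rybp.

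Pcgf6, the subunit of a complex with the DNA-binding factors Mga, Max and E2f6, had signals of 5.41, 6.34 and 5.85 in tumor cells, 5.35, 5.37 and 5.73 in ADM, 4.93, 4.44 and 5.08 in embryonic cells, and 4.74, 4.20 and 4.15 in adult cells. Tumor and ADM arrays overlapped each other and lay above all embryonic and adult arrays. Pcgf6 rose by 1.50 ± 0.25 (limma adjusted p = 0.000311) in tumor cells, a call held under all 15 alternatives. It rose by 1.12 ± 0.25 (limma adjusted p = 0.00351) in ADM, where it stood at 0.9967 without ADM replicate 3, and stood at 0.45 (95% interval -0.09 to 1.00) in embryonic cells. Against embryonic cells, Pcgf6 rose by 1.05 ± 0.25 (limma adjusted p = 0.00672) in tumor cells, and stood at 0.81 without tumor replicate 2 and at 0.86 without embryonic replicate 2. That change was 0.93 with cyclic loess and 0.60 with housekeeping centring (limma adjusted p = 0.0693).

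Pcgf1, the subunit of the complex that Kdm2b recruits to CpG islands, had signals of 6.04, 6.54 and 6.03 in tumor cells, 5.78, 5.55 and 5.69 in ADM, 5.98, 5.60 and 5.17 in embryonic cells, and 5.72, 6.46 and 5.37 in adult cells. Its adult arrays spanned more than 1 log2 unit and overlapped the arrays of every other group. The changes against adult cells were 0.35 (95% interval -0.23 to 0.94) in tumor cells, -0.18 (-0.76 to 0.41) in ADM and -0.27 (-0.85 to 0.32) in embryonic cells. The first turned to -0.17 with quantile normalization and -0.15 with cyclic loess. Tumor arrays lay above embryonic and ADM arrays, but the differences of 0.62 (limma adjusted p = 0.116) and 0.53 (limma adjusted p = 0.247) did not pass.

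The cofactors Rybp and Yaf2 are paralogs that stimulate the ligase in variant complexes, and a complex holds either. Yaf2 had signals of 6.70, 6.88 and 6.60 in tumor cells, 6.40, 6.43 and 6.77 in ADM, 5.84, 5.12 and 5.82 in embryonic cells, and 5.89, 5.25 and 5.07 in adult cells. All tumor and ADM arrays lay above all embryonic and adult arrays. Yaf2 rose by 1.32 ± 0.24 (limma adjusted p = 0.000561) in tumor cells and by 1.13 ± 0.24 (limma adjusted p = 0.00226) in ADM, where it stood at 0.96 without adult replicate 3. It stood at 0.19 (95% interval -0.32 to 0.70) in embryonic cells, and at -0.22 there with quantile normalization and -0.10 with cyclic loess. Against embryonic cells it rose by 1.13 ± 0.24 (limma adjusted p = 0.00284) in tumor cells, and stood at 0.90 without embryonic replicate 2, 0.91 with cyclic loess and 0.68 with housekeeping centring (limma adjusted p = 0.0514). In ADM against embryonic cells it stood at 0.94 ± 0.24 (limma adjusted p = 0.0136), which was lost without ADM replicate 3 (limma adjusted p = 0.0666), without embryonic replicate 2 (limma adjusted p = 0.0664) and with housekeeping centring (limma adjusted p = 0.0963).

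Rybp had signals of 8.58, 7.68 and 8.12 in tumor cells, 7.72, 8.20 and 7.46 in ADM, 8.20, 8.51 and 8.21 in embryonic cells, and 7.83, 7.69 and 8.06 in adult cells. Tumor and ADM arrays overlapped adult arrays, and embryonic arrays lay above them. The changes against adult cells were 0.27 (95% interval -0.24 to 0.78) in tumor cells, -0.07 (-0.58 to 0.44) in ADM and 0.45 (-0.06 to 0.96) in embryonic cells, and the first turned to -0.07, -0.12 and -0.01 after quantile, cyclic loess and housekeeping scaling. Within arrays, Yaf2 minus Rybp averaged -1.40 ± 0.55 in tumor cells, -1.26 ± 0.54 in ADM, -2.71 ± 0.59 in embryonic cells and -2.46 ± 0.53 in adult cells (SD, n = 3 each). Over the 4 groups the pair differed (exact permutation p = 0.0253, adjusted p = 0.0338). That adjusted p passed 0.05 when ADM replicate 1 (0.0716), ADM replicate 3 (0.063), tumor replicate 3 (0.0509), embryonic replicate 2 (0.0746), embryonic replicate 3 (0.0519) or adult replicate 2 (0.0681) was left out of the exact test.

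Set side by side, 2 of the 4 variant PCGF genes rose in tumor cells, 3 in ADM and 0 in embryonic cells against adult cells by limma. The median changes of these 4 genes were 1.14, 1.19 and 0.17. Of the 2 canonical PCGF genes, 1 rose in tumor cells, 0 in ADM and 1 in embryonic cells, with means of the 2 changes of 1.00, 0.51 and 0.63. Of all genes, 20.0%, 16.7% and 12.6% were called in the same comparisons, in either direction. Among the 8132 genes of higher mean signal given above, these shares were 43.3%, 36.3% and 24.1%. At an unadjusted p under 0.05, 7 of the 10 members were higher in tumor cells, 6 in ADM and 3 in embryonic cells, and none was lower, beside 45.3%, 45.8% and 41.4% of all genes in either direction. Whether canonical and variant genes differed as classes was not tested.

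Between the groups other than adult cells, 0 of 10 members were called in tumor cells against ADM by limma, where 8.35% of all genes were called. At an unadjusted p under 0.05 the count there was 3 members, beside 25.5% of all genes. In ADM against embryonic cells 1 of 10 was called, Pcgf5, beside 9.46% of all genes. In tumor cells against embryonic cells 3 of 10 were called, Pcgf5, Pcgf6 and Yaf2, beside 14.3% of all genes. The arrays did not overlap for 5, 6 and 6 members, beside 31.6%, 37.6% and 38.6% of all genes. On adjusted p alone 2, 3 and 5 members passed, beside 15.3%, 17.6% and 26.5% of all genes. Among the 8132 genes with a mean over 5, these shares were 28.6%, 30.3% and 46.2%. Of those genes, 15.4%, 15.6% and 24.9% were called with the fold minimum.

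Scaling moved the calls. With quantile normalization or cyclic loess none of the 5 ADM calls reached the fold minimum, although Rnf2 at 0.81 (limma adjusted p = 0.00332), Pcgf3 at 0.82 (limma adjusted p = 0.000389), Pcgf5 at 0.96 (limma adjusted p = 0.00284) and Pcgf6 at 0.96 (limma adjusted p = 0.0129) still passed on adjusted p with quantile normalization. Yaf2 did not, at 0.67 (limma adjusted p = 0.0511). In tumor cells Pcgf5 stood at 1.39 or more and Pcgf6 at 1.12 or more under each scaling, while Pcgf2 and Yaf2 stood at 0.71 and 0.82 with quantile normalization, where Bmi1 stood at 1.03. In embryonic cells Rnf2 stood at 0.92 and Pcgf2 at 0.84 with quantile normalization. With housekeeping centring both stood higher than in the deposited values, at 1.43 and 1.37. That centring used the median level of the 11 housekeeping genes on each array. This level averaged 9.60 in tumor, 9.48 in ADM, 9.15 in embryonic and 9.33 in adult cells. It was lower in embryonic than in adult cells, although the median change of the same genes there was 0.40. Their median changes in tumor cells and ADM were 0.92 and 0.78. Centring on the median change was not run.

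**Figure D4:**
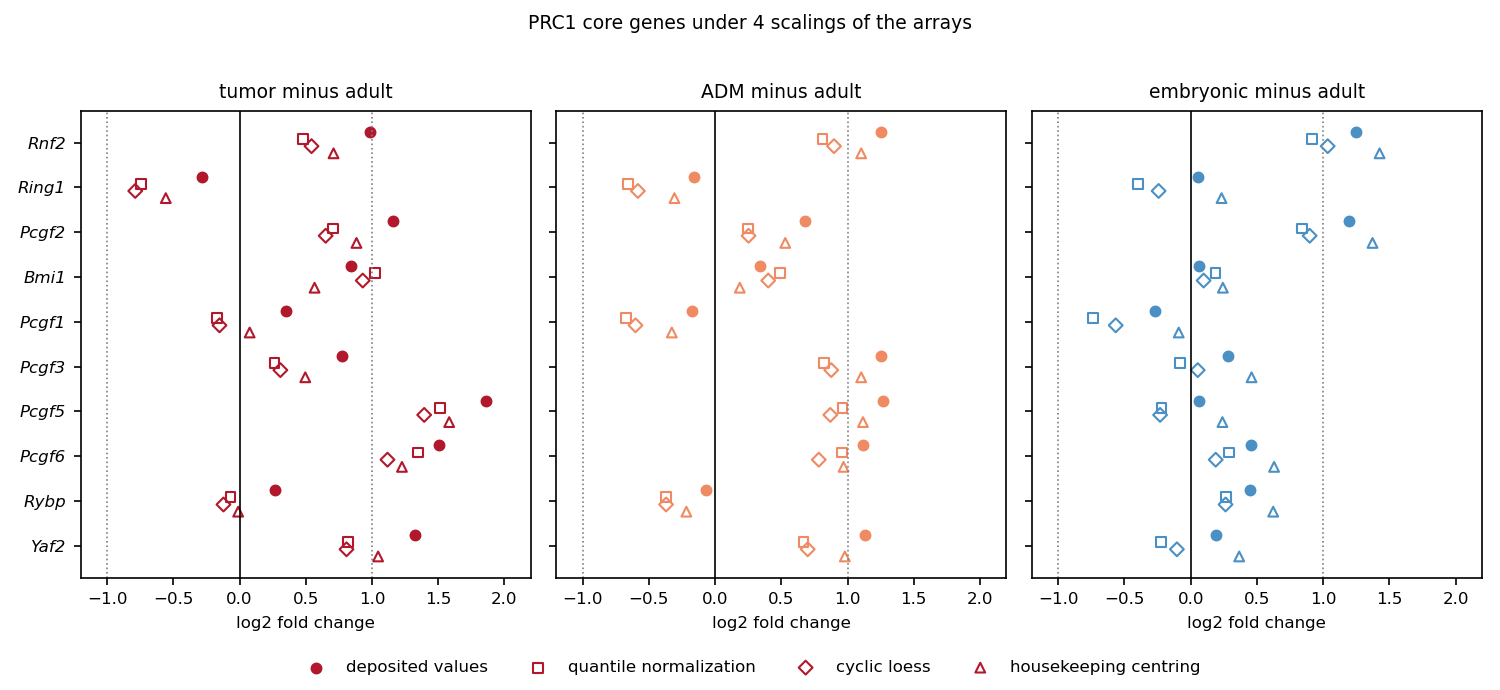
Log2 fold change against adult acinar cells (horizontal axis) of each PRC1 gene in the deposited values (filled circles) and after quantile normalization, cyclic loess and housekeeping centring (open symbols). In tumor cells and ADM the 3 alternatives lay below the deposited values for every gene but Bmi1, which lay higher after quantile normalization and cyclic loess, and Pcgf5 and Pcgf6 stayed above 1 in tumor cells.

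Genes that work with the core were read from lists written with earlier results of these data known. Of 8 measured partners of canonical PRC1, 1 rose in tumor cells, the polyhomeotic gene Phc1 by 1.45 ± 0.19 (limma adjusted p = 3.43e-05). In ADM 1 rose, Scmh1 by 1.05 ± 0.22, and in embryonic cells 1 fell, the chromodomain gene Cbx7, which stood at -1.05 ± 0.21 there, at -0.66 in tumor cells and at -0.53 in ADM. The medians of this list were 0.53, 0.21 and 0.24 in tumor, ADM and embryonic cells. Scml2 was at or under background in all 4 groups.

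Of 16 measured partners of variant PRC1, 7 rose in tumor cells, 5 in ADM and 2 in embryonic cells against adult cells. None was called lower. These counts stand beside 43.3%, 36.3% and 24.1% of the 8132 genes with a mean over 5. The medians of this list were 0.88, 0.67 and 0.35, beside 0.92, 0.78 and 0.40 for the housekeeping genes. Cbx3, the HP1-gamma gene of the Pcgf6 complex, rose by 2.04 ± 0.22 in tumor cells, 1.12 ± 0.22 in ADM and 1.44 ± 0.22 in embryonic cells. Tfdp1, the E2F partner gene of the same complex, rose by 2.03 ± 0.26 in tumor cells and 1.31 ± 0.26 in ADM, and E2f6 rose by 1.60 ± 0.21 in tumor cells. Auts2, a subunit of complexes with Pcgf3 or Pcgf5, rose by 1.27 ± 0.15 in tumor cells, 1.39 ± 0.15 in ADM and 1.12 ± 0.15 in embryonic cells. Dcaf7, another subunit of these complexes, rose by 1.50 ± 0.23 in tumor cells and 1.48 ± 0.23 in ADM. Fbrsl1 fell in tumor cells against ADM, at -1.30 ± 0.17 (limma adjusted p = 0.000152), the 1 called partner of variant PRC1 in that comparison. Kdm2b, Bcor and Csnk2b were not analysed here.

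Of 8 genes for enzymes that remove ubiquitin from H2A and for their cofactors, 2 rose in tumor cells, 1 in ADM and 2 in embryonic cells. Bap1, the catalytic subunit of the polycomb deubiquitinase, rose by 1.24 ± 0.17 (limma adjusted p = 4.49e-05) in tumor cells and stood at 0.85 in ADM and 0.63 in embryonic cells. Usp3 rose by 1.03 ± 0.26, 1.52 ± 0.26 and 1.07 ± 0.26 in tumor, ADM and embryonic cells. Asxl3 rose by 1.02 ± 0.17 (limma adjusted p = 0.000735) in embryonic cells, and was at or under background in ADM and adult cells. Usp16 stood at -0.56, -0.76 and -0.89, under the fold minimum, with limma adjusted p = 0.00399, limma adjusted p = 0.000547 and limma adjusted p = 0.000226.

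Of 6 measured genes of the PRC2 core, which methylates histone H3, 4 rose in tumor cells, 4 in ADM and 3 in embryonic cells. Ezh2, its catalytic subunit, rose by 4.14 ± 0.23 in tumor cells, where Pcgf5, the member with the largest change, rose by 1.86. At the Ink4 locus, a known target of Bmi1, Cdkn2b rose by 1.94 ± 0.19 in ADM and stood at -0.55 in tumor cells. Cdkn2a, whose products restrain the cell cycle, averaged 3.60 in tumor, 4.56 in ADM, 3.46 in embryonic and 3.85 in adult cells, at or under background in tumor and embryonic cells.

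**Figure D5:**
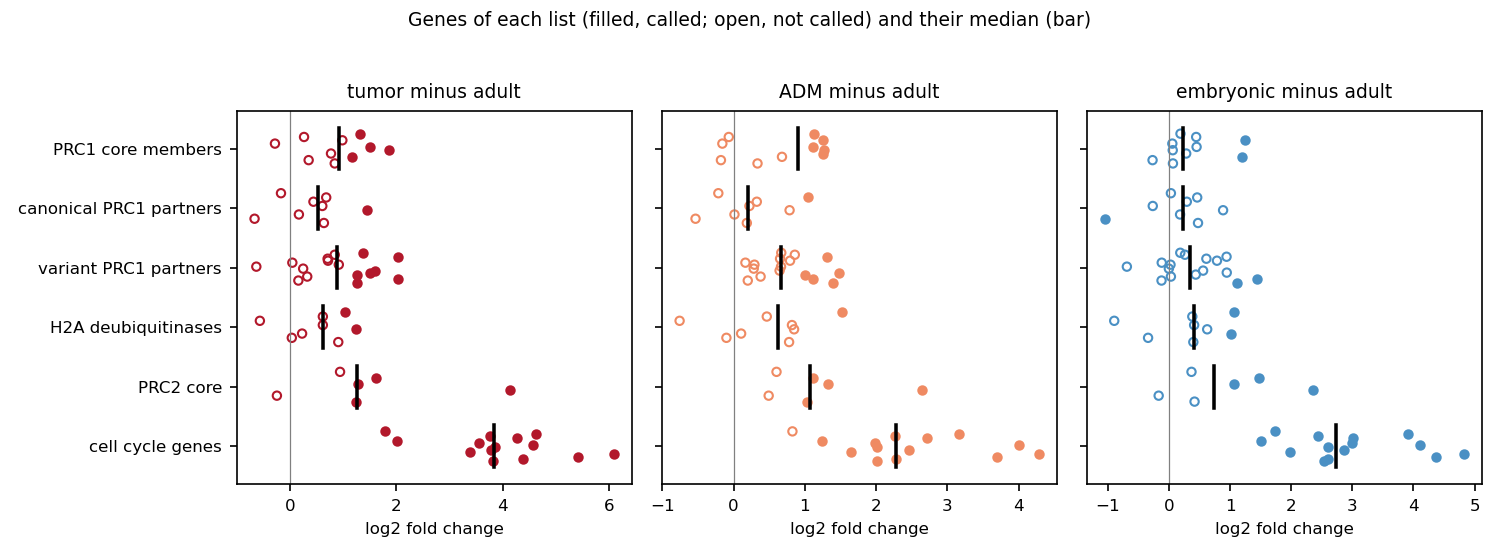
Log2 fold change against adult acinar cells (horizontal axis, with its own range in each panel) of the genes of 6 lists in tumor, ADM and embryonic cells. Each point is a gene, filled where called, and the bar is the median of the list: 0.92, 0.90 and 0.24 for the PRC1 core and 3.83, 2.27 and 2.73 for cell cycle genes.

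Cell cycle genes and markers of other cells moved with these groups, and their part in the PRC1 changes was not tested. Of 14 measured cell cycle genes, 14 rose in tumor cells, 13 in ADM and 14 in embryonic cells, with a summed linear signal of 5164 to 10467, 2691 to 3623 and 4047 to 4393, against 700.4 to 747 in adult cells. Mki67, a marker of dividing cells, stood at 3.56, 1.98 and 2.99 in tumor, ADM and embryonic cells against adult cells. Fibroblast and stellate markers summed to 119 to 122 in tumor cells, 2274 to 5482 in ADM, 6305 to 10040 in embryonic cells and 935 to 962 in adult cells, with 0, 8 and 10 of 10 called higher than in adult cells. In tumor cells Col1a2, Pdgfra, Dcn, Lum, Postn, Thy1 and Des were at or under background. Ductal markers summed to 4372 to 4676 in tumor cells, 7409 to 9393 in ADM, 1578 to 1953 in embryonic cells and 2026 to 2176 in adult cells, and 4, 5 and 4 of 7 were called higher, with 2 called lower in tumor cells.

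In embryonic cells 7 of 9 immune, 7 of 8 endothelial, 7 of 7 endocrine, 4 of 4 mesothelial, 1 of 3 neural and 1 of 1 erythroid markers rose against adult cells. Their summed signal was 1499 to 2112 for immune markers (378 to 414 in adult cells), 2121 to 2229 for endothelial markers (512 to 593) and 8440 to 10361 for endocrine markers (1923 to 2816). Mesothelial markers summed to 440 to 810.1 (76.1 to 93.4 in adult cells, 1363 to 1610 in tumor cells and 1329 to 1653 in ADM), neural markers to 127 to 168 (25.6 to 35.8) and the erythroid marker Slc4a1 to 26.4 to 71.5 (13.3 to 24.3). In ADM 3 of 9 immune markers and 1 of 4 mesothelial markers rose, and in tumor cells 0 of 9 immune and 1 of 4 mesothelial markers. In each of these groups 1 of 4 mesothelial markers was called lower. The median change of the mesothelial list was -0.23 in ADM and -0.36 in tumor cells, although its summed signal was higher there than in adult cells. Lrrn4 was at or under background in both groups, and Upk3b in ADM. Rnf2 and Pcgf2, the members that rose in embryonic cells, rose in samples that also held higher signal of these cells, and the part of that signal in their change was not tested.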

How the data were processed

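Total RNA of 12 samples was biotin-labelled and hybridised to Affymetrix arrays, per the labels' protocols. The deposited log2 values, 1.56 to 13.67, had been processed by the authors with software and normalization not given in the sources used here, and log base 2 is a reading of that range that no source states. Of 41345 probe sets, 23521 named 1 gene, 1814 several and 16010 none. The first kind gave 22180 genes, with the probe set of highest mean over 12 arrays used per gene. Group means were fitted over all arrays with limma 3.58.1 in R 4.3.3 (8 residual and 5.02 prior degrees of freedom), without a replicate block, and 6 contrasts were read. The number of arrays limits the precision. Tests were two-sided, and scripts were tested on simulated data. Paralog pairs were tested by exact enumeration of all 369600 arrangements.

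The members, lists and background level were chosen with earlier results of these data known. Named genes were all members, called genes of 17 lists by size of change with Ezh2, Cdkn2a and Mki67, and the 5 genes nearest to Rnf2. Outside this rule, Usp16 was named, as were genes given as dim, as not analysed or as complex partners. Of 157 list entries 134 were measured. Alternatives were quantile normalization, cyclic loess, centring on the median level of 11 measured housekeeping genes, dim genes left out and mean of probe sets. Further ones were a replicate block, array weights, a trended robust prior, fits of 2 groups, no fold minimum and each array left out.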

Additional observations from a re-analysis of the deposited data

Results flagged for a closer look

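4 changes against adult cells differed between groups by limma's direct test of the groups, at adjusted p under 0.05 and the fold minimum. Differences that passed on adjusted p alone are not listed here. Pcgf5 was higher by 1.20 in ADM than in embryonic cells (limma adjusted p = 0.000353) and by 1.80 in tumor than in embryonic cells (limma adjusted p = 5.88e-06). Pcgf6 was higher by 1.05 (limma adjusted p = 0.00672) and Yaf2 by 1.13 (limma adjusted p = 0.00284) in tumor than in embryonic cells, and with housekeeping centring these were 0.60 (limma adjusted p = 0.0693) and 0.68 (limma adjusted p = 0.0514). The second Pcgf3 probe set, outside the gene tests, was higher by 1.17 in ADM than in adult cells (limma adjusted p = 0.000342 over 23521 probe sets), beside 1.25 for the probe set used. Groups of 3 arrays were not examined for single outlying arrays.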

How the results depend on the processing

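The number of members called changed by more than 1.5 times in these cases. With quantile normalization it was 0 in ADM and 0 in embryonic cells against adult cells (5 and 2 in the deposited values). With cyclic loess it was 0 in ADM, 2 in tumor and 1 in embryonic cells against adult cells, and 1 in tumor against embryonic cells (5, 4, 2 and 3 in the deposited values). Housekeeping centring gave 3 in ADM against adult cells, 0 in ADM against embryonic cells and 1 in tumor against embryonic cells. Without a fold minimum it was 7 in tumor against adult cells, 2 in tumor against ADM, 3 in ADM against embryonic and 5 in tumor against embryonic cells. The cause of these shifts was not tested, beyond the lower minimum itself. As each array was left out in turn, the count ran from 4 to 5 in ADM and from 4 to 5 in tumor cells against adult cells, stayed at 2 in embryonic against adult and at 0 in tumor against ADM, and ran from 1 to 3 in ADM against embryonic and from 1 to 3 in tumor against embryonic cells. The adjusted p of the paralog pairs ran from 0.0235 to 0.0713 for Rnf2 and Ring1, from 0.0509 to 0.304 for Bmi1 and Pcgf2, from 0.0153 to 0.0423 for Pcgf5 and Pcgf3, and from 0.0306 to 0.0746 for Yaf2 and Rybp (exact permutation tests). Same-numbered arrays of different groups did not deviate together (18 correlations from -0.05 to 0.13, 1 over 0.1), so the numbers do not show a pairing. With the replicate block the counts were 5, 4, 2, 0, 1 and 3 in the order ADM, tumor and embryonic against adult, tumor against ADM, ADM against embryonic and tumor against embryonic, as without it, so the block changed no count. No called change turned its sign under any alternative. Signal near background limits Bmi1.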
